A study of Rattus norvegicus with 32 samples.

Results

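The SOCS family of cytokine feedback inhibitors comprises the 7 genes Socs1 to Socs7 and Cish, which encodes the founding member CIS. Members were taken as every non-control probe whose gene name, in either version of the array annotation, was 1 of these 8 symbols. This gave 8 genes and 12 probes, out of 27961 gene names and 45598 probes on the array. Each SOCS protein holds an SH2 domain that docks on phosphorylated tyrosines and a SOCS box that recruits elongins B and C with a cullin, so that the bound protein can be ubiquitinated. Cytokine receptors signal through JAK kinases and STAT factors, the STATs switch on SOCS genes, and the SOCS proteins then dampen the same receptors. Socs1 is best known as a brake on interferon signalling, Socs3 on IL-6 type cytokines that act through gp130, and Cish and Socs2 on growth hormone, prolactin and other inputs to STAT5. Socs4 to Socs7 are less well known, with roles ascribed mostly to growth factor and insulin receptors.

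Messenger RNA of the left ventricle was measured on 32 arrays of 1 colour, 1 per rat, in young adult male and female Wistar rats. Sepsis was produced by caecal ligation and puncture (CLP), in which the caecum is tied off and pierced so that gut bacteria leak into the abdomen. Each sex had 5 sham rats, 5 CLP rats given saline and 6 CLP rats given landiolol, a short-acting β1-selective blocker infused after CLP (CLP plus landiolol). All groups shared buprenorphine for pain, a similar infusion volume, no antibiotics, imaging and an ex vivo perfusion of the isolated heart before freezing, and hearts were collected at 20 h. Landiolol was given only on top of CLP, so no group shows its effect without sepsis, and 1 time point was sampled. Males lay on 2 slides and females on 2 others, so a sex difference in level cannot be told apart from a slide difference, and only changes were compared between the sexes. The scan of 1 female slide was also processed with another version of the extraction protocol than the other 3 slides. All 11 cardiomyocyte markers were well above background on all 32 arrays. In whole ventricle, fewer cells of a type and less RNA per cell cannot be told apart. Levels are log2 normalised intensities, and the levels of different genes are not compared with each other.

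The main probes of Socs1, Socs3 and Cish lie on rat build rn4, the build named in the array annotation, and are shown by the first 30 of their 60 bases so that the measured transcripts can be traced. The Socs1 probe was at chr10:4820384-4820443 on the plus strand. Socs3 had 2 probes, and its main probe, printed in 10 spots, was at chr10:107957211-107957270 on the minus strand. The Cish probe was at chr8:112545330-112545389 on the plus strand.
Socs1 probe: ggacggcagccgcgagaccttcgactgcct
Socs3 main probe: gaagatgcttgaaaaaactcaaccaaatcc
Cish probe: aactgtgtctattctcccagccctggtttc

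STAT dimers favour palindromes of the form TTCNNNGAA, which reads the same on both strands, and this form was searched in the 250 bases before the start of each gene in RefSeq build GRCr8. An entry was found for 5 of the 8 members (Socs1, Socs3, Socs4, Socs6 and Cish). Cish held 4 matches, which began 241, 230, 136 and 119 bases before the start, and Socs1 held 1, which began 196 bases before it. Socs3, Socs4 and Socs6 had none in this window. Of 33469 rat promoters of this length, 7.67% held at least 1 match and only 2 held 4, the most found in any. The promoters of Socs1 (chr10:5389324-5389573, plus strand) and Cish (chr8:116850719-116850968, plus strand) are printed because these are the members with matches, which stand in capitals. A match is a string of letters and was not tested for binding here.
Socs1 promoter: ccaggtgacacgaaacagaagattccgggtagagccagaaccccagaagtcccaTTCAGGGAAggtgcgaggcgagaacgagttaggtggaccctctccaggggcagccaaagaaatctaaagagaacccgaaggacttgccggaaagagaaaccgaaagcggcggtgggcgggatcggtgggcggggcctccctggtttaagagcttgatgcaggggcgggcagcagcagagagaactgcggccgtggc
Cish promoter: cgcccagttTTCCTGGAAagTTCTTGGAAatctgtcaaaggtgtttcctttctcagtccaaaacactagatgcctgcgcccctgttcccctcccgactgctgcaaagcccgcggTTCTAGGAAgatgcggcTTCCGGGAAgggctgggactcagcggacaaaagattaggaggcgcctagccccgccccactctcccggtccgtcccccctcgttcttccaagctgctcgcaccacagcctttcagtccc

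Of the 12 member probes, 11 passed the detection filter (well above background on 80% of a group's arrays) in each sex and entered the tests, so that all 8 genes were tested. The other probe, the second of Socs6, was above background on 0 of 32 arrays and has no usable level. Among the main probes only that of Socs1 was not well above background everywhere. It was so on 13 of 16 male and 12 of 16 female arrays: on all 5 sham and 4 of 5 CLP arrays in each sex, through which it passed the filter, and on 4 of 6 male and 3 of 6 female CLP plus landiolol arrays. Tests used limma over all probes kept, 25866 in males and 25395 in females, with Benjamini-Hochberg adjustment over all of them. A difference was called at a false discovery rate of 1% against sham and of 5% for CLP plus landiolol against CLP. The study's methods set these thresholds for CLP against sham and for CLP plus landiolol against CLP. The comparison of CLP plus landiolol with sham was added here at the 1% threshold.

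Socs1, the brake on interferon signalling, was the only member called in any comparison: in females it fell in CLP plus landiolol relative to sham, with CLP in between. Its levels were 7.20, 6.28, 6.81, 5.51 and 6.80 in the 5 female sham arrays. They were 5.79, 6.02, 5.31, 4.82 and 3.99 in the 5 female CLP arrays. In the 6 female CLP plus landiolol arrays the lowest was 4.21, the median 4.68 and the highest 4.96. All 6 landiolol-treated arrays thus lay below all 5 sham arrays, while the CLP arrays reached into the sham range. The mean fell from 6.52 ± 0.65 (SD, n = 5) in sham to 4.67 ± 0.27 (SD, n = 6) in CLP plus landiolol, a log2 difference of -1.85 (SE 0.34, 95% interval -2.57 to -1.14), or 3.62-fold lower (limma adjusted p = 0.00221). The two-sided exact permutation p was 0.00433, the smallest that 6 against 5 arrays can give. Against sham, the CLP mean was 5.18 ± 0.81 (SD, n = 5), a difference of -1.34 (SE 0.35, 95% interval -2.09 to -0.59) that missed the 1% threshold (limma adjusted p = 0.0259, exact permutation p = 0.0317). CLP plus landiolol and CLP differed by -0.52 for Socs1 (95% interval -1.24 to 0.20, limma adjusted p = 0.686), within the spread between arrays.

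The size of the Socs1 difference changed with the background step and with a term for slide position. Each female group lay on both slides, but the groups were unevenly spread over the slide rows. With the spot's mean signal and no background subtraction the female difference between CLP plus landiolol and sham was -0.98, and with the normexp correction -0.82, both still called (limma adjusted p = 0.00159 and 0.00177). All 5 female sham arrays lay in the upper row of their slides and all 6 CLP plus landiolol arrays in the lower row, with 3 CLP arrays in the upper and 2 in the lower row. Among the female CLP arrays the Socs1 mean was 5.70 in the upper row and 4.41 in the lower. Within the upper row, CLP minus sham was -0.82, and within the lower row CLP plus landiolol minus CLP was 0.26, with overlapping arrays in each case. With slide row as a term, which only the CLP arrays can inform here, Socs1 was no longer called in CLP plus landiolol against sham (-0.55, limma adjusted p = 0.782), and calls over all probes dropped to 20. A difference between landiolol-treated and sham females therefore cannot be told apart from a difference between slide rows. In males, whose groups were spread over both rows, lower row minus upper row for Socs1 was 0.24 in sham, 0.67 in CLP and -0.70 in CLP plus landiolol. By slide, the female difference between CLP plus landiolol and sham was -2.36 on slide 3 and -1.14 on slide 4.

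Male Socs1 did not separate by group. The 5 male sham arrays read 5.12, 6.02, 5.26, 5.04 and 4.73, and the 5 male CLP arrays 4.52, 4.69, 5.63, 4.52 and 5.25. The 6 male CLP plus landiolol arrays ran from 4.54 through a median of 4.93 to 5.50, and all 3 groups overlapped. CLP minus sham was -0.31 (95% interval -0.89 to 0.27, limma adjusted p = 0.512). The male change minus the female change was 1.01 for CLP against sham (95% interval 0.07 to 1.95, unadjusted p = 0.0357 by limma, adjusted p = 0.9999). For CLP plus landiolol against sham it was 1.58 (95% interval 0.68 to 2.48, unadjusted p = 0.00120 by limma, adjusted p = 0.476). Neither passed: in limma's interaction test 0% of 24769 probes were called as different between the sexes for any of the 3 comparisons, and 3.5%, 4.91% and 6.32% had an unadjusted p under 0.05 for CLP against sham, CLP plus landiolol against CLP and CLP plus landiolol against sham.

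**Figure D1:**
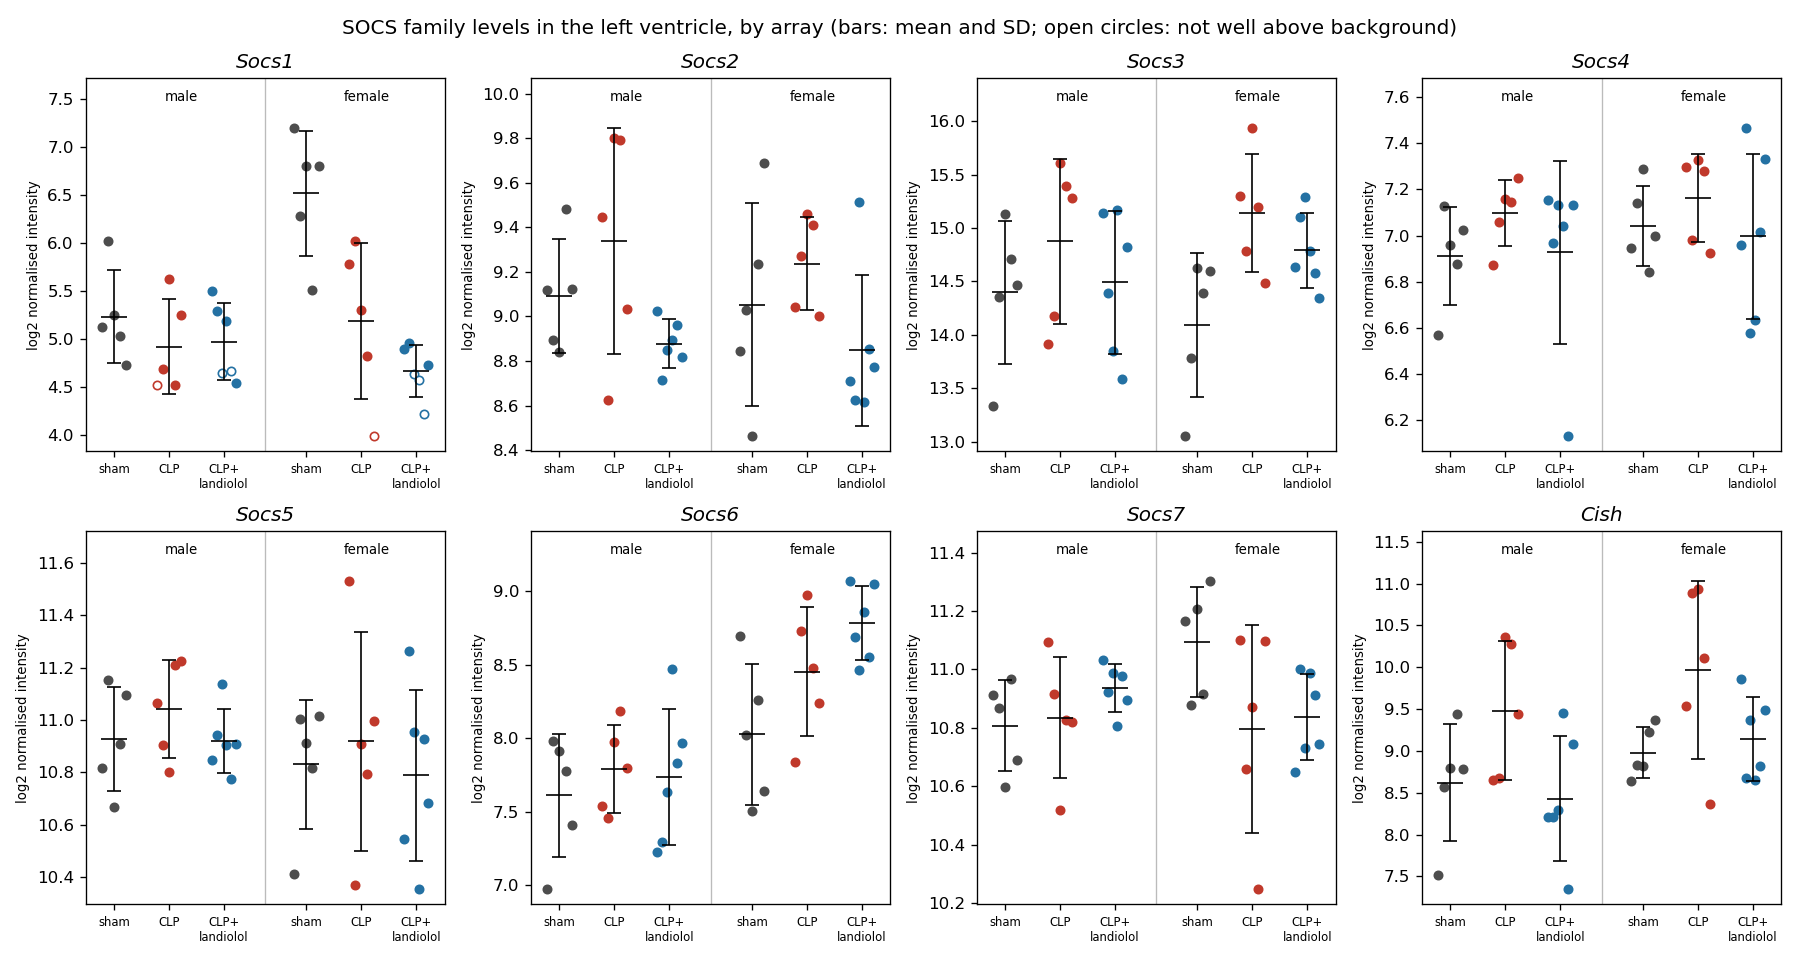
Level of each of the 8 genes on every array (vertical axis, log2 normalised intensity, main probe), by group within males and females, with bars for the mean and SD and open circles for spots not well above background. In the Socs1 panel all 6 female CLP plus landiolol arrays (4.21 to 4.96) sit below all 5 female sham arrays (5.51 to 7.20), and in the other panels the groups overlap.

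Socs3, the inhibitor of gp130 receptors, was higher on average after CLP in both sexes but passed the threshold in neither. The 5 female sham arrays read 13.05, 13.78, 14.63, 14.40 and 14.60 on the main probe. The 5 female CLP arrays read 15.30, 14.78, 15.94, 15.19 and 14.49, and the 6 female CLP plus landiolol arrays ran from 14.35 through a median of 14.71 to 15.30. Only the lowest CLP array fell within the female sham range. The female difference between CLP and sham was 1.05 (SE 0.31, 95% interval 0.38 to 1.72), or 2.07-fold (limma adjusted p = 0.0470, exact permutation p = 0.0238). The further probe gave 1.11 (limma adjusted p = 0.0935). Within the upper slide row, where 3 CLP and all 5 sham arrays lay, the Socs3 difference was 1.25, and by slide it was 0.90 and 1.16. Landiolol-treated females stood 0.70 above sham (limma adjusted p = 0.145) and 0.35 below CLP in Socs3 (95% interval of the difference -0.99 to 0.29, limma adjusted p = 0.779). All landiolol-treated females lay in the lower slide row. With slide row as a term, CLP plus landiolol minus sham was 1.20 for Socs3 (limma adjusted p = 0.498) and CLP plus landiolol minus CLP was -0.05 (limma adjusted p = 0.9999).

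Male Socs3 levels overlapped throughout. The 5 sham arrays read 13.33, 14.35, 15.13, 14.71 and 14.47, and the 5 CLP arrays 13.91, 14.17, 15.61, 15.40 and 15.29. The 6 CLP plus landiolol arrays ran from 13.58 through a median of 14.61 to 15.17. The male difference between CLP and sham was 0.48 on the main probe (95% interval -0.40 to 1.35, limma adjusted p = 0.503) and 0.69 on the further probe (limma adjusted p = 0.203). The 10 spots of the main probe had an SD over spots of 0.0142 to 0.0967 per array, which covers spot noise alone. Both probes of Socs3 moved together across the arrays of a group (Pearson r = 0.780 over 32 arrays after subtracting group means, as a description).

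Cish, which limits STAT5 signalling, had its highest group mean in CLP in each sex, but the spread was wide and no comparison was called. Socs2, Socs3, Socs4 and Socs5 also had their highest group mean in CLP in each sex. The 5 male sham arrays read 7.52, 8.57, 8.79, 9.44 and 8.78, and the 5 male CLP arrays 8.65, 8.68, 10.36, 10.28 and 9.44. The 6 male CLP plus landiolol arrays ran from 7.35 through a median of 8.25 to 9.45. In males, landiolol-treated hearts were thus 1.05 below CLP hearts in mean Cish level (95% interval of the difference -1.95 to -0.15), or 2.07-fold, but the groups overlapped and the adjustment was not passed (limma unadjusted p = 0.0251, adjusted p = 0.257, exact permutation p = 0.0606). The value was -0.99 and -1.23 on the 2 male slides. Male CLP minus sham was 0.86 for Cish (95% interval -0.08 to 1.80, limma adjusted p = 0.219).

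Female Cish read 8.64, 8.83, 8.82, 9.23 and 9.37 in sham and 9.54, 10.89, 10.93, 10.11 and 8.36 in CLP. Female CLP plus landiolol ran from 8.65 through a median of 9.09 to 9.86. In CLP, 4 of 5 arrays lay above every sham array and the fifth lay below them all. CLP minus sham was 0.99 (95% interval 0.14 to 1.84, limma adjusted p = 0.146), and CLP plus landiolol minus CLP was -0.82 (95% interval -1.64 to -0.01, limma unadjusted p = 0.0488, adjusted p = 0.532). Within the upper slide row CLP minus sham was 1.48, and within the lower row CLP plus landiolol minus CLP was -0.09. The female CLP mean of Cish was 10.45 in the upper row (3 arrays) and 9.24 in the lower (2 arrays). With slide row as a term, CLP plus landiolol minus CLP was -0.09 for Cish (limma adjusted p = 0.9999), against -0.82 without it.

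Socs2, which limits growth hormone signalling, had no called difference. In males the sham arrays read 9.12, 8.89, 8.84, 9.48 and 9.12, and the CLP arrays 9.45, 8.62, 9.80, 9.79 and 9.03. The 6 male CLP plus landiolol arrays were tightly grouped, from 8.71 through a median of 8.87 to 9.02. Their mean lay 0.46 below that of CLP (95% interval of the difference -0.87 to -0.06, limma unadjusted p = 0.0280, adjusted p = 0.269, exact permutation p = 0.0823). In females the same Socs2 difference was -0.39 (95% interval -0.83 to 0.05, limma adjusted p = 0.598). CLP minus sham was 0.25 in males and 0.19 in females, with limma adjusted p = 0.468 and 0.676.

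Among the remaining members, the largest difference was that of Socs6 in females. Its 5 female sham arrays read 8.69, 8.02, 7.50, 8.26 and 7.64, and its 5 female CLP arrays 7.84, 8.73, 8.97, 8.48 and 8.24. The 6 female CLP plus landiolol arrays ran from 8.47 through a median of 8.77 to 9.07, above 4 of the 5 sham arrays. Their mean was 0.76 above sham (SE 0.23, 95% interval 0.27 to 1.24; limma adjusted p = 0.0416, exact permutation p = 0.0173), short of the 1% threshold and, as for Socs1, between groups that lay in different slide rows. Of all probes, 12.8% had an adjusted p under 0.05 in that comparison. With slide row as a term the Socs6 difference was 0.91 (limma adjusted p = 0.519). Within female groups Socs6 also moved with array brightness, the median signal before normalisation (r = 0.570). In males the corresponding Socs6 difference was 0.13 (95% interval -0.37 to 0.62).

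Socs4, Socs5 and Socs7 differed little between groups. Group means of Socs4 lay between 6.91 and 7.16, those of Socs5 between 10.8 and 11.04 and those of Socs7 between 10.8 and 11.1 over the 6 groups of both sexes. Of these, only Socs7 had a difference with an exact permutation p under 0.05: female CLP plus landiolol minus sham was -0.26 (limma adjusted p = 0.318, exact permutation p = 0.0390), and the other probes of Socs7 gave -0.15 and 0.03. The 3 Socs7 probes followed each other only weakly within groups, with Pearson r of 0.508, 0.055 and 0.269 over 32 arrays as a description. For Socs5 the 95% intervals of all male differences lay within -0.37 and 0.37, so larger changes of that gene in males are outside these intervals.

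**Figure D2:**
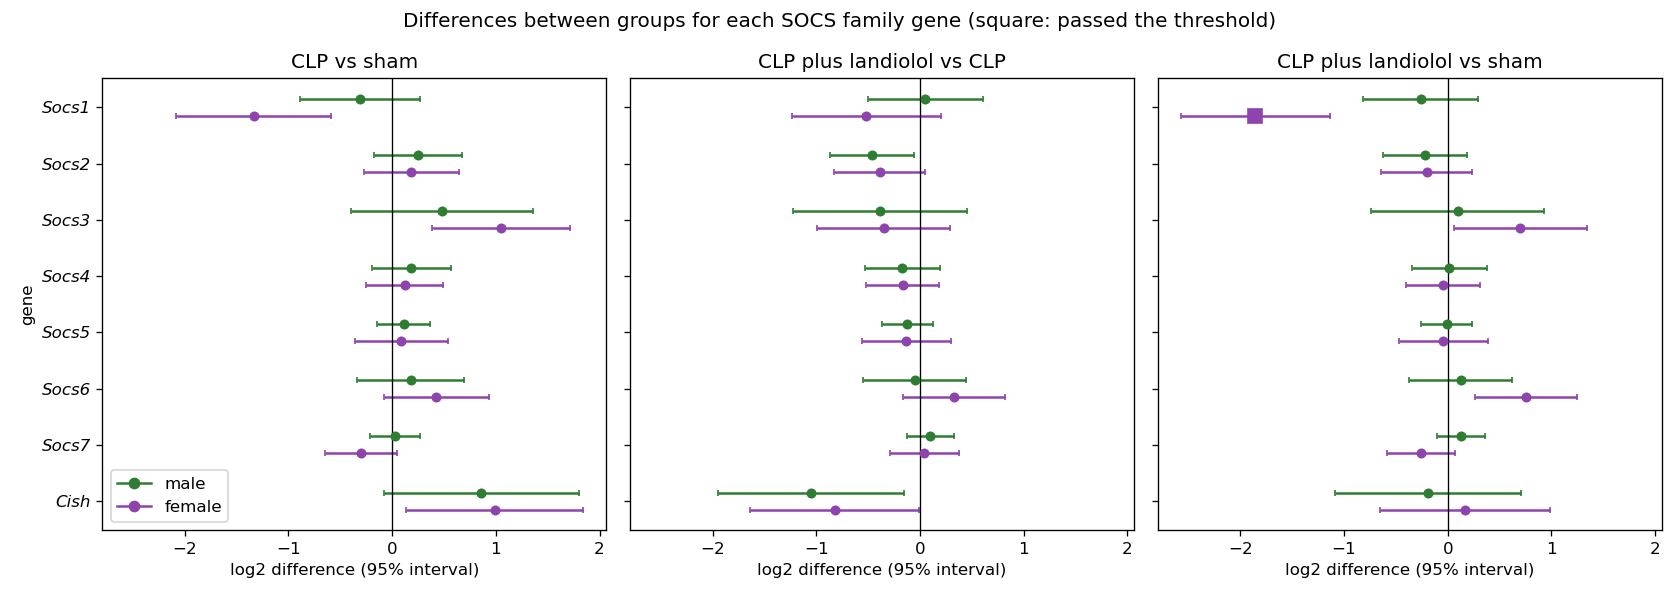
Log2 difference between groups (horizontal axis) with its 95% interval for each of the 8 genes in males and females, 1 panel per comparison, with a square for a difference that passed the threshold. The only square is Socs1 in females for CLP plus landiolol against sham, at -1.85.

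Counted over the family, calls were scarce and have to be read against the share of all probes called. In male CLP against sham, 7 of 8 members were higher and 1 lower, with a median log2 difference of 0.18 against 0.01 over all probes, and 0 were called where 7.81% of all probes were. No member had an unadjusted p under 0.05 there, against 28.8% of all probes, and the male groups of no member failed to overlap, against 12.3%. In male CLP plus landiolol against CLP, 6 of 8 were lower (median -0.15 against -0.01 over all probes), 0 were called against 1.56%, 2 had an unadjusted p under 0.05 (Cish and Socs2) against 14.8%, and 0 had groups that did not overlap against 2.27%. Male CLP plus landiolol against sham gave 4 higher and 4 lower (median 0.003), with 0 called against 4.15%, 0 under an unadjusted p of 0.05 against 24.2%, and 0 not overlapping against 7.79%. The significance analysis of microarrays, the kind of test in the study's methods, also called 0 members in these 3 male comparisons. It was run here with 100 permutations, fewer than in the study, on the probes kept here.

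In female CLP against sham, 6 members were higher and 2 lower (median 0.15 against -0.01 over all probes). None was called at 1%, against 3.63% of probes, while 2 (Socs1 lower, Socs3 higher) had an adjusted p under 0.05, against 9.17%, and 3 had an unadjusted p under 0.05, against 23.1%. No member's groups failed to overlap, against 8.32%. Female CLP plus landiolol against CLP gave 6 lower and 2 higher (median -0.26 against 0.03 over all probes), with 0 called against 0.0945%, 1 under an unadjusted p of 0.05 (Cish) against 9.34%, and 0 not overlapping against 1.15%. Female CLP plus landiolol against sham gave 1 called member, Socs1, where 5.25% of probes were called in either direction and 2.24% as lower. There, 2 members (Socs1 and Socs6) had an adjusted p under 0.05 against 12.8%, 3 had an unadjusted p under 0.05 against 26.7%, and 1 had groups that did not overlap against 9.74%. The significance analysis of microarrays gave the same counts of called members in these 3 female comparisons. CLP plus landiolol against CLP shares its CLP arrays with CLP against sham, so opposite signs in these comparisons are not independent. Over all 48 exact permutation tests of a member in a comparison, 5 gave an unadjusted p under 0.05, all in females against sham.

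The other genes of the pathway were counted in lists chosen by function. Of 24 measured genes induced by interferon, whose signalling Socs1 restrains, 12 fell in female CLP against sham (background 1.82% lower) and 12 in female CLP plus landiolol against sham, with medians of -1.74 and -2.08. In female CLP against sham the chemokine gene Cxcl9 fell by 6.27 on the log2 scale and its relative Cxcl10 fell by 5.08. In males 5 of the 24 fell after CLP (background 3.94% lower; median -1.08), among them Cxcl9, which fell by 2.72, and Cxcl10, which fell by 2.66. No gene of this list rose in any of the 6 comparisons. The summed linear signal of the 24 genes ran from 155100 to 358400 on female sham arrays, from 51510 to 100400 on female CLP arrays and from 49320 to 78660 on female CLP plus landiolol arrays. In males it ran from 64100 to 233800 in sham, 34330 to 85560 in CLP and 47650 to 118500 in CLP plus landiolol. The female sham arrays were thus above all other female arrays in this sum, as they were above all landiolol-treated arrays in Socs1, but the female CLP array with the highest sum had the lowest Socs1 level (3.99). The female groups of this list were confounded with slide row in the same way.

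Of 18 measured genes induced through STAT3, which Socs3 restrains and which include Socs3, 5 rose in male CLP against sham (background 3.88% higher) and 3 in female CLP against sham (background 1.82% higher), and none fell. The siderophore-binding protein gene Lcn2 rose by 5.10 in males and 3.82 in females, and Lbp, which encodes the lipopolysaccharide-binding protein, by 1.87 and 2.03. Stat3 rose by 1.59 in males (limma adjusted p = 3.11e-05) and 1.06 in females (limma adjusted p = 0.00157), and in males it was 0.82 lower in mean level with landiolol than with CLP alone (limma adjusted p = 0.0235). The IL-6 receptor gene Il6r rose by 1.56 in male CLP and fell by 1.38 with landiolol (limma adjusted p = 2.26e-04 and 0.00484), and the kinase gene Jak2 rose by 2.03 in male CLP. In female CLP Il6r was 1.18 and Jak2 1.22 higher than in sham, short of the 1% threshold (limma adjusted p = 0.0358 and 0.0382). Female CLP plus landiolol minus CLP was -0.92 for Il6r, which was not called (limma adjusted p = 0.341). Of 10 genes induced through STAT5, which include Cish and Socs2, 1 rose and 2 fell in each sex after CLP (background 3.88% higher and 3.94% lower in males, 1.82% each way in females): in males the repressor gene Bcl6 rose and the cyclin genes Ccnd1 and Ccnd2 fell, and in females the survival gene Bcl2l1 rose and Ccnd1 and Igf1 fell. The growth hormone receptor gene Ghr fell by 0.98 in males and 0.85 in females after CLP.

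The partners and relatives of the family were counted in the same way. None of the 12 genes of the ubiquitin ligase that the SOCS box recruits (elongins, cullins and their partners) was called in any of the 6 comparisons, where the share of all probes called ran from 0.0945% to 7.81%. Of 25 other SOCS-box genes measured, 1 rose (Spsb1, by 0.94) and 1 fell (Spsb3, by 0.46) in male CLP, a share near the background of 7.81%. The ankyrin-repeat SOCS-box gene Asb18 was higher with landiolol than with CLP alone in males (2.10, limma adjusted p = 0.0312) and in females (2.21, limma adjusted p = 0.0468), and Asb15 in males (1.14). Of all probes, 1.56% were called in that male comparison and 0.0945% in the female one. The female groups lay unevenly over the slide rows. With slide row as a term, calls over all probes in female CLP plus landiolol against CLP dropped from 24 to 1. Of 19 other brakes on cytokine signalling, 4 rose and 1 fell in male CLP (background 3.88% higher and 3.94% lower) and 3 rose in female CLP (background 1.82% higher). The ubiquitin ligase gene Cblb rose by 2.24 in males and 2.00 in females, the decoy receptor gene Il1r2 by 2.01 and 2.35, and the phosphatase gene Ptpn2, which acts on JAKs, by 1.48 and 0.86. Of these brakes, 4 were called with landiolol against CLP alone in males, where 1.56% of all probes were. Ptpn2 was 0.76 lower (limma adjusted p = 0.0274). The phosphatase gene Ptpn6, which rose by 1.37 after CLP, was a further 0.76 higher (limma adjusted p = 0.00748), and the leukocyte phosphatase gene Ptprc was 0.55 higher (limma adjusted p = 0.0450). The interferon-induced protease gene Usp18, a brake on type I interferon receptors, fell by 1.36 in male CLP and was 0.92 higher with landiolol (limma adjusted p = 3.12e-04 and 0.0270).

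Markers of macrophages stood higher after CLP in both sexes, and those of other cell types moved too. The summed linear signal of the 11 macrophage and monocyte markers measured ran from 31930 to 45250 on male sham arrays and from 56640 to 78640 on male CLP arrays, and from 38170 to 44210 and 52290 to 78060 in females. Of 12 neutrophil markers, 5 (Elane, Mmp8, Cxcr1, Ngp and Ltf) were above background on no array, and only S100a8 and S100a9 passed the filter in both sexes, through the CLP groups. S100a8 was well above background on 0 of 5 male sham and 1 of 5 female sham arrays and on all 5 CLP arrays of each sex. Its male rise is therefore given as a bound of at least 11.3-fold, against the lowest signal well above background on each sham array. No p-value is given for this bound, because S100a8 was kept through the groups where it was high. S100a9 was well above background on 3 of 5 male and 2 of 5 female sham arrays and on all CLP arrays. A further neutrophil marker, Fpr1, was kept in females only and averaged 4.91 in sham and 3.67 in CLP, a difference that was not called. Of 7 fibroblast markers, 4 (Col1a1, Col1a2, Col3a1 and Lum) fell in male CLP (background 3.94% lower) and none was called in female CLP (background 1.82% lower), with medians of -1.34 and -0.95. The 7 lymphocyte and NK markers kept in both sexes summed to 2562 to 3123 in male sham and 2240 to 2632 in male CLP. In females they summed to 2061 to 2995 and 1565 to 2846, so that the ranges overlapped in both sexes. Taken singly, 8 of 8 such markers kept in males were lower after CLP (median -0.81), with 0 called (background 3.94% lower). Of 8 kept in females, 6 were lower and 2 higher (median -0.60), with 1 called lower (background 1.82% lower). Of 7 endothelial markers 1, Emcn, fell in CLP in each sex (background 3.94% lower in males and 1.82% in females). The summed signal of the 7 ran from 46920 to 63920 in male sham and from 49900 to 69070 in male CLP. In females it ran from 35730 to 57840 in sham and from 36690 to 71230 in CLP. The summed signal of the 4 erythroid markers was 154600 on female CLP replicate 4 and between 1675 and 14560 on the other female arrays, and leaving that array out changed no call of a member. The part of these cells in the SOCS levels was not tested.

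The genes whose levels were most like each member over the 32 arrays, out of 15825 genes and after subtracting each sex's mean, are given as a description. For Socs1 they included LOC300024 (Pearson r = 0.809) and Eif2ak2 (0.804), which encodes the interferon-induced kinase PKR. With group means subtracted these were 0.644 and 0.777. For Socs3 they were the immediate early genes Klf6 (0.806), Junb (0.795) and Fos (0.789), and these values held with group means subtracted (0.758, 0.730 and 0.786). For Cish they were the transporter gene Slc41a3 (0.832), the mannosidase gene Man1a1 (0.832) and Pcbd1 (0.831), and 0.789, 0.763 and 0.761 within groups. For Socs2 they were LOC103694471 (0.682), LOC102547402 (0.647) and Igsf3 (0.647). The arrays share slides and brightness, so these correlations are not over independent measurements.

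**Figure D3:**
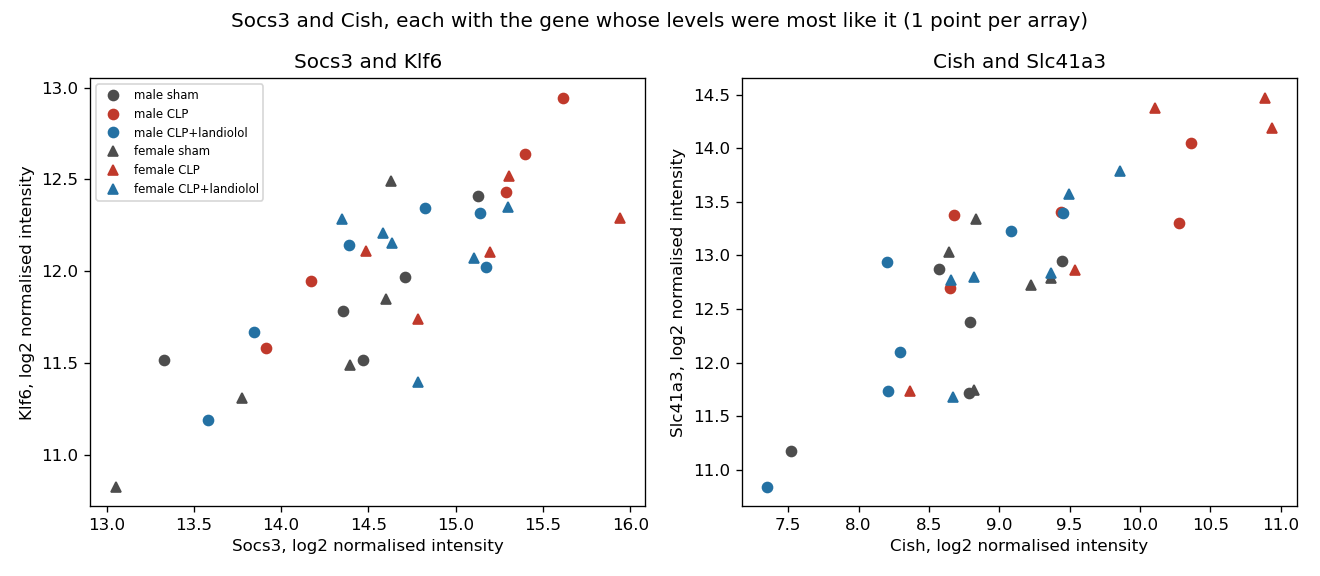
Levels on the 32 arrays of Socs3 and Cish (horizontal axes, log2 normalised intensity) against the gene most like each, Klf6 and Slc41a3 (vertical axes, log2 normalised intensity), with circles for males and triangles for females, coloured by group. In both panels the points rise together and the groups are mixed along the trend.

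Members were also compared with each other across rats of the same group, with group means subtracted and 28 pairs tested by permutation within groups. Socs3 and Cish were correlated (Pearson r = 0.651, permutation p = 0.00051, adjusted p = 0.0143; Spearman rho = 0.618, permutation adjusted p = 0.0160; n = 32). Without the 2 arrays farthest from the median Socs3 level r was 0.617, and it was 0.844 in males and 0.380 in females. Socs6 and Cish gave r = 0.566 (permutation p = 0.00193, adjusted p = 0.0270; rho = 0.595, adjusted p = 0.0160) and 0.597 without the 2 farthest arrays. Socs7 and Cish gave r = -0.501 (permutation p = 0.0216, adjusted p = 0.105; rho = -0.546, permutation p = 0.00421, adjusted p = 0.0393). The other 25 pairs did not pass the adjustment by either measure. Array brightness, the median signal before normalisation, moved with these members within groups, with r of 0.530 for Cish, 0.482 for Socs6, 0.308 for Socs3 and -0.422 for Socs7. After removing brightness the 3 pairs gave r of 0.605, 0.418 and -0.361, and after removing the slide 0.660, 0.554 and -0.423.

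**Figure D4:**
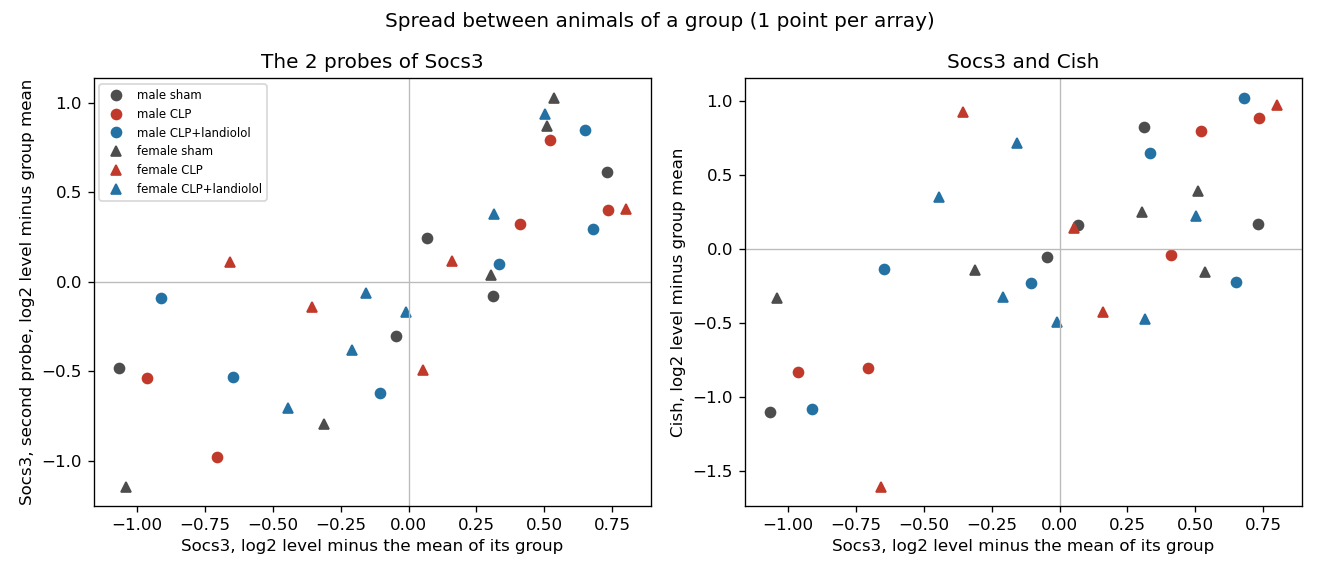
Deviation of each array from its group mean (log2 units) for Socs3 (horizontal axes) against its further probe (left) and against Cish (right), with circles for males and triangles for females. Points rise together in both panels, with r of 0.780 for the 2 probes and 0.651 for Socs3 and Cish.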

How the data were processed

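Left ventricular RNA of 32 rats was hybridised to 1-colour Agilent arrays of 62976 spots on 4 slides, read, per the labels, with Feature Extraction 10.5. The deposited scanner files hold background-subtracted intensity values per spot, and the authors' table holds log2 values, quantile normalised within each sex, whose columns each matched their own array best (Spearman 0.995 or more) and served as an alternative. Control spots were left out, spots of a probe averaged, and log2 intensity quantile normalised within each sex. A probe was kept where any group had it well above background on 80% of its arrays. Samples were grouped by the labelled sex and treatment, and columns left unused because they belong to no labelled sample numbered 0. Differences were tested with limma 3.58.1 in R 4.3.3 (3 groups per sex in 1 fit, Benjamini-Hochberg over all probes kept), sex differences by an interaction term over 32 arrays, and members also by two-sided exact permutation tests. A gene's main probe was the kept probe with the highest mean over all arrays. Every member was named, with the called genes of the other lists that illustrate each role. Some items are not reported here. The members and lists were chosen with earlier results of these data known. The model was tested on simulated data. P-values of differences set them against the spread between the arrays of a group, 1 per rat, and the number of arrays limits the precision. Array medians of the processed intensity ran from 49.2 to 158. Alternatives changed the background correction, normalisation, filter, variance prior, array weights, slide, sample day, probes per gene, threshold, arrays in the fit and test.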

Additional observations from a re-analysis of the deposited data

Results flagged for a closer look

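Of 48 groups of member levels examined, 2 held an array that stood apart from the rest of its group by more than the 95% limit of Dixon's test, where chance alone gives about 1 in 20. Socs2 read 9.51 on female CLP plus landiolol replicate 3, the highest of its 6 arrays, with the nearest at 8.86 and a gap of 0.733 of the group's range. Socs4 read 6.13 on male CLP plus landiolol replicate 5, the lowest of its 6 arrays, with the nearest at 6.97 and a gap of 0.819 of the range. That array was also the dimmest of the series, with a median processed signal of 49.2. Across arrays, with group means subtracted, Socs4 and brightness had a Pearson r of 0.440 over 32 arrays and of 0.606 in males, given as a description. Neither array changed a call for its gene when left out.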

How the results depend on the processing

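Of 269 alternative values of the counts of called members, 264 stayed within 1.5 times the original and 5 did not. At a false discovery rate of 5%, 2 members were called in female CLP against sham (Socs1 and Socs3) and 2 in female CLP plus landiolol against sham (Socs1 and Socs6). In the latter comparison the count was 0 when probes had to be above background on 80% of all 16 female arrays, which removed Socs1 from the test, and 0 with slide row as a term, an alternative chosen after seeing the data (Socs1 -0.55, limma adjusted p = 0.782). Leaving out each array in turn gave 0 to 1 called members in female CLP against sham, with the 1 (Socs1, -1.59, limma adjusted p = 0.00983) without female sham replicate 4. For the called Socs1 difference leaving out arrays gave -2.11 to -1.68 (limma adjusted p = 0.00111 to 0.00790), and 14 other alternatives gave -1.95 to -0.82 (limma adjusted p = 3.91e-04 to 0.00586 where the test gives one). Of 2141 alternative values for single members, 2136 kept their side of the threshold, 1 lost its call and 4 gained one, no called difference changed sign, and 130 differences that were called in neither setting changed sign. No paired analysis was made, because each array was a different rat and the labels give no pairing. Socs1 lay near background on several arrays, which limits how well the size of its differences is known.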
